A study of Caenorhabditis elegans with 43 samples.

Results

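Ribosome-protected mRNA fragments (footprints) of the nas genes, the main family of astacin metalloproteases of Caenorhabditis elegans, were followed through larval development. The members are the 37 gene rows, of 20182 in the count table, whose symbol is nas followed by a hyphen and a number. The samples are whole animals of 4 strains, collected every 2 h at 25 °C after arrested L1 larvae were given bacteria, with 1 library per strain and hour. The mutant strains are lin-41(xe11), with 11 libraries at 18 to 38 h, a double mutant of lin-41(xe11) and let-7(n2853), with 11 libraries at the same hours, and let-7(n2853) alone, with 10 libraries at 18 to 36 h. The wild type is N2, with 11 libraries at 18 to 38 h. Per the labels' protocols, monosomes of let-7(n2853) came from a first time course and sucrose gradients, and those of the other 3 strains from a second course and size-exclusion chromatography. A difference of the let-7(n2853) strain from the other strains can therefore not be told apart from the time course and the purification. As background, n2853 changes the seed of the microRNA let-7, and xe11 changes the let-7 sites of lin-41, its main target. The labels name no separate cultures of a strain, so hours stand in for replicates. The p-values below measure the spread between hours that is left after the terms of each fit.

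Astacins are secreted or membrane-bound zinc proteases that cut proteins outside the cell. In worms, several of them act on the cuticle, the collagen coat that is rebuilt and shed at every larval molt, and genes of cuticle building and shedding are known to be read in waves that recur with each molt. Loss of nas-36 or nas-37 leaves larvae unable to shed the old cuticle fully, and nas-6 and nas-7 are needed for the grinder, the hard plates of the pharynx that crush bacteria. NAS-38 is known for its part in the sleep-like quiescence of the molt, and nas-39 is the relative of tolloid and BMP1. The astacin genes dpy-31, hch-1 and toh-1 have other symbols and are no members.

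The libraries held 7040947 to 12551598 counts in lin-41(xe11), 6133302 to 12797339 in double mutants, 17364056 to 32261888 in let-7(n2853) and 5020197 to 12361022 in N2. Levels are given as CPM, the usual count unit scaled for depth, with library sizes adjusted by TMM (trimmed mean of M-values). The members' CPM summed to between 472 and 1003 in lin-41(xe11), 409 and 1099 in double mutants, 262 and 884 in let-7(n2853) and 429 and 948 in N2. In whole animals a fall in a footprint level can come from fewer cells that read the gene, less RNA per cell or less translation per RNA. These cannot be told apart.

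Of the 37 members, 25 passed the low-count filter (at least 1 CPM in at least 5 libraries of the fit) in N2 and 12 did not. Those under the filter were nas-10, nas-16, nas-17, nas-18, nas-19, nas-20, nas-21, nas-22, nas-24, nas-28 and both rows named nas-2. Chromosome V holds 14 of the members and chromosome X 8, with 5 on II, 4 on IV, 3 on III and 3 on I (WBcel235 annotation). The longest coding sequences per gene ran from 720 bp in nas-18 to 2784 bp in nas-39. Per kilobase of coding sequence, the mean N2 level over the 11 hours was 85.4 CPM for nas-37, 53.2 for nas-15 and 49.4 for nas-11. On the same scale it was 29.1 CPM for nas-36, 19.1 for nas-7, 11.4 for nas-3 and 10.1 for nas-6. The single gene nas-37 made up 28.2% of the family's summed N2 CPM.

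In N2, most members did not stay level but stood high at intervals of 6 to 10 h, and they did so at different hours. The highest N2 hour was 18 h for nas-3, 20 h for 4 members, 22 h for 3, 24 h for 2, 26 h for nas-32, 28 h for 6, 30 h for 4, 32 h for 2 and 38 h for nas-7 and nas-27. The 4 members highest at 20 h were nas-4, nas-15, nas-29 and nas-37, and the 6 highest at 28 h were nas-6, nas-13, nas-14, nas-23, nas-36 and nas-39. The lowest N2 hour was 32 h for 9 of the 25 members and 18 h for 6.

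**Figure D1:**
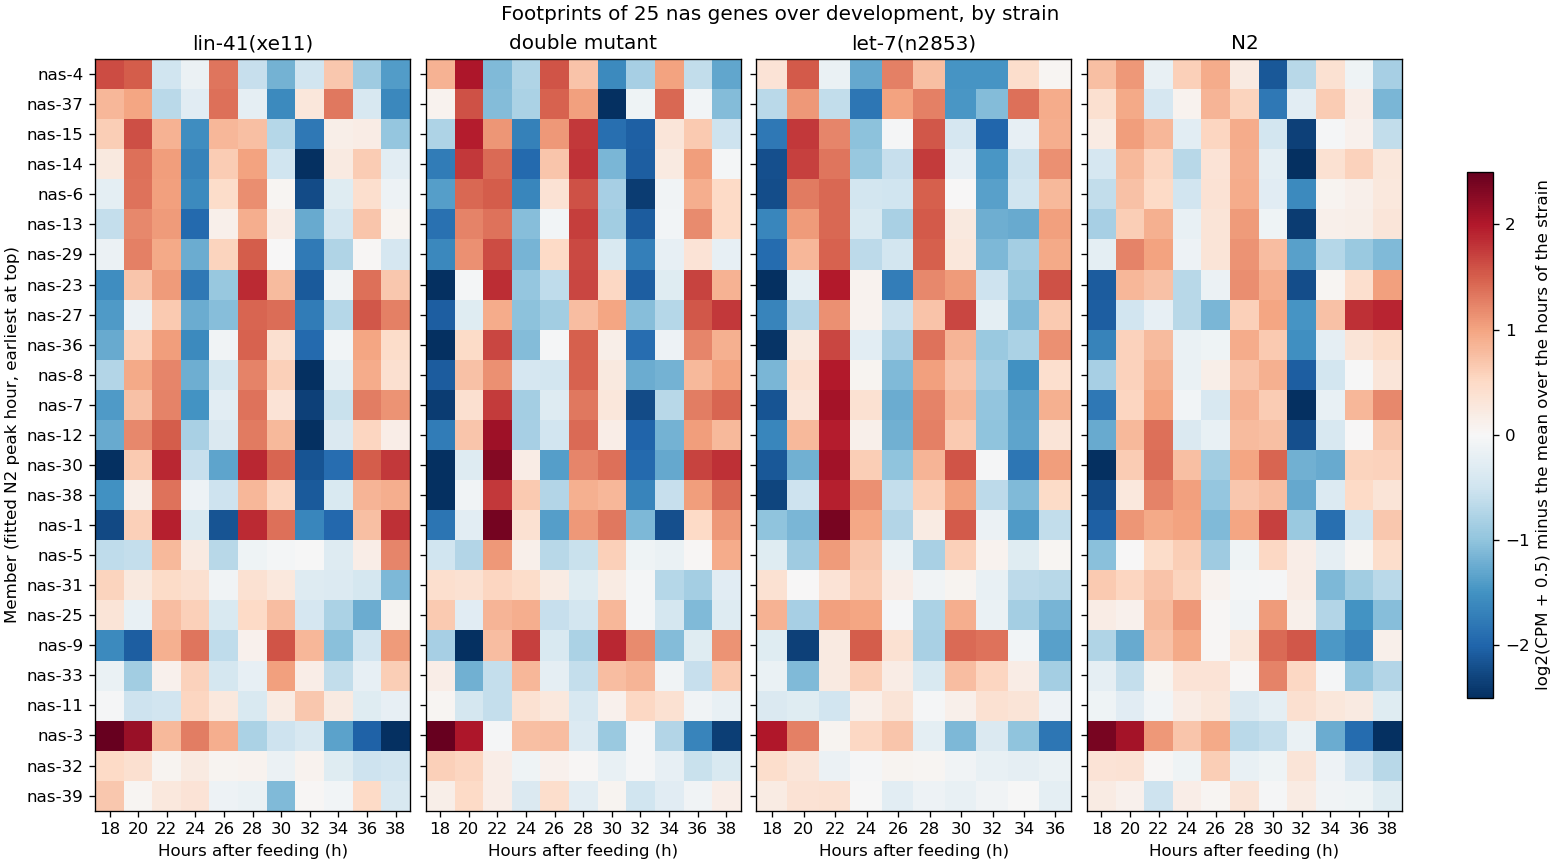
Heat map of log2(CPM + 0.5) of the 25 members that passed the filter, minus the mean over the hours of the strain. Rows run from the earliest fitted N2 peak at the top to the latest at the bottom, columns are hours, and the panels are lin-41(xe11), the double mutant, let-7(n2853) and N2; differences beyond 2.5 take the end colours. In N2, nas-37 and nas-4 are red at 20 and 26 h, most genes from nas-15 to nas-1 at 20 to 22 h and again at 28 to 30 h, and nas-9 later still, while nas-3 fades from left to right.

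The molting protease gene nas-37 (chromosome X, 9944844 to 9949063, minus strand, WBcel235) had 3 separate highs in N2, a high being an hour above both its neighbours and at or above the gene's mean. Its N2 levels at 18, 20, 22, 24, 26, 28, 30, 32, 34, 36 and 38 h were 226, 330, 129, 183, 310, 251, 49.2, 142, 266, 193 and 77.5 CPM. The highs at 20, 26 and 34 h were thus separated by lows at 22 and 30 h. In lin-41(xe11) it stood at 308, 342, 108, 142, 447, 148, 57.1, 210, 434, 130 and 56.6 CPM over the same hours. The double mutant had 164, 468, 72.7, 88.5, 425, 313, 27.1, 143, 414, 147 and 72.3 CPM. Both strains were high at the 3 hours named for N2. In let-7(n2853), the levels from 18 to 36 h were 71.0, 241, 74.4, 32.3, 231, 275, 41.5, 53.4, 297 and 217 CPM, with highs at 20, 28 and 34 h. The only other member with N2 highs at 20, 26 and 34 h was nas-4, at 29.6, 26.5 and 18.0 CPM, and it was lowest at 30 h with 2.80 CPM.

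The other molting protease gene, nas-36 (chromosome I, 7527224 to 7531715, plus strand), had its first N2 highs 2 h after those of nas-37. Its N2 levels from 18 to 38 h were 14.3, 69.9, 80.9, 41.7, 43.4, 89.1, 74.2, 15.7, 39.7, 58.4 and 64.7 CPM. These highs were at 22 and 28 h, with lows at 18 and 32 h. The grinder gene nas-7 (chromosome II, 7400545 to 7402725, minus strand) had N2 levels of 4.64, 25.2, 34.6, 16.4, 12.98, 31.9, 26.98, 2.38, 15.1, 30.8 and 40.4 CPM. Its partner nas-6 (chromosome IV, 17486842 to 17490779, minus strand) had 5.96, 15.9, 13.5, 6.65, 12.2, 18.5, 7.59, 2.78, 9.83, 10.3 and 11.4 CPM. Both grinder genes were lowest at 32 h, and both had a high at 28 h.

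In the mutants, these 3 genes covered a wide range over the hours. The gene nas-36 had a lowest, median and highest level of 11.1, 58.5 and 123 CPM in lin-41(xe11), 4.96, 41 and 119.3 in double mutants and 4.94, 29.4 and 93.2 in let-7(n2853), against 14.3, 58.4 and 89.1 in N2. For nas-7 they were 3.01, 21.9 and 45.0 CPM in lin-41(xe11), 2.52, 18.5 and 51.7 in double mutants and 2.94, 19.1 and 65.1 in let-7(n2853), against 2.38, 25.2 and 40.4 in N2. For nas-6 they were 1.503, 9.36 and 23.7 CPM in lin-41(xe11), 0.848, 8.44 and 20.5 in double mutants and 0.735, 4.47 and 15.7 in let-7(n2853), against 2.78, 10.3 and 18.5 in N2. The ranges of all 4 strains overlapped for each gene. Each range spans the lows and highs over the hours, so this overlap does not compare the strains. The lowest nas-6 value, at 18 h in let-7(n2853), rests on 14 counts.

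**Figure D2:**
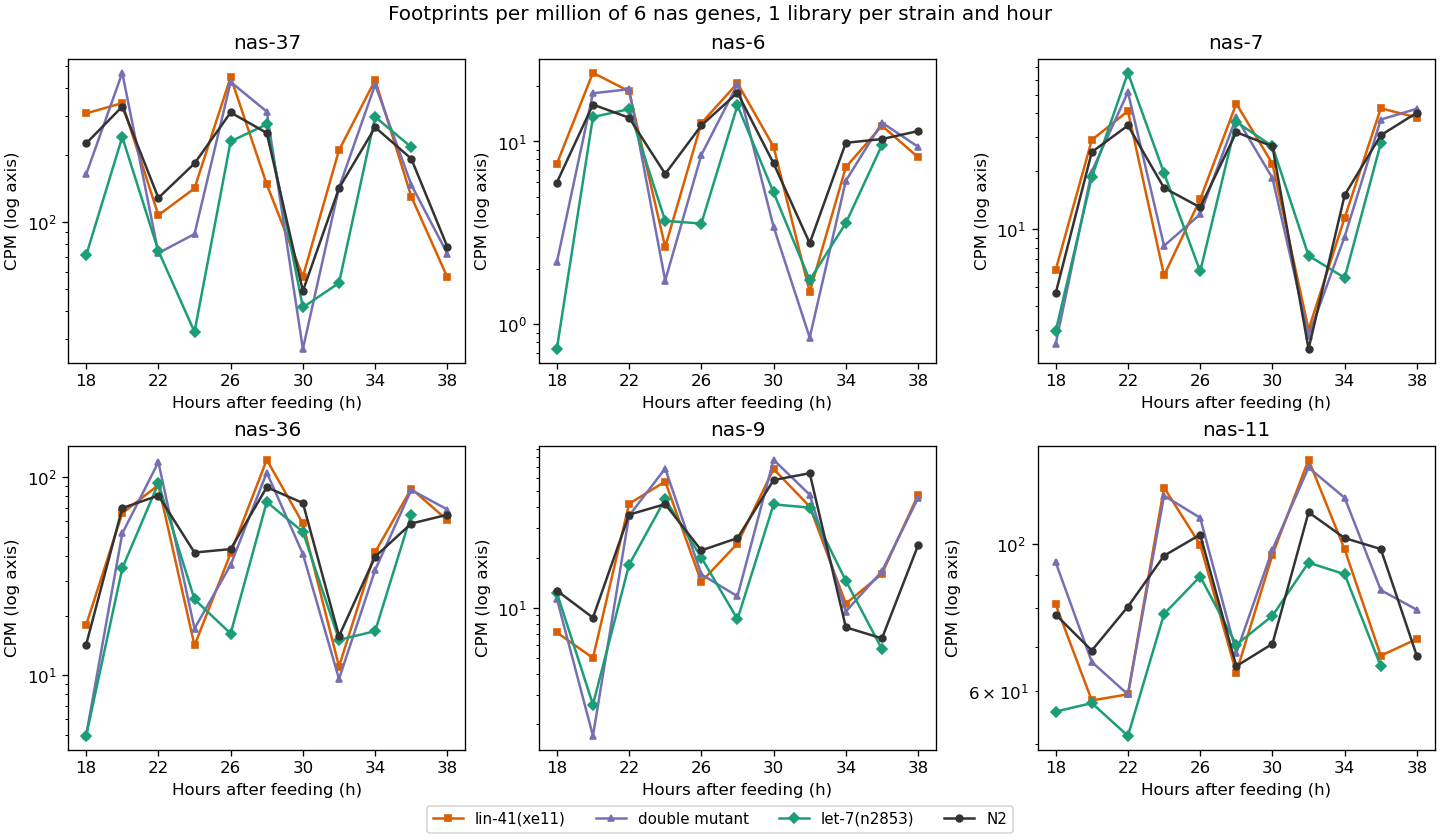
Footprint level in CPM (log axis) against hours after feeding for nas-37, nas-6, nas-7, nas-36, nas-9 and nas-11, with 1 point per library and 1 line per strain: lin-41(xe11), double mutant, let-7(n2853) and N2. In every strain nas-37 is low at 30 h; nas-6, nas-7 and nas-36 are high at 28 h, and nas-9 is high at 30 h, where the N2 level was 58.3 CPM. The level of nas-11 moves little, between 65.5 and 112 CPM in N2.

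The 6 other members with the highest mean N2 CPM were nas-15, nas-11, nas-38, nas-30, nas-9 and nas-14. From 18 to 38 h, nas-15 had 90.2, 161, 140, 64.7, 113, 150, 56.6, 15.1, 76.8, 84.5 and 50.9 CPM in N2. The gene nas-14 had 16.05, 38.5, 31.5, 13.3, 27.5, 40.97, 18.3, 3.44, 28.5, 32.5 and 26.5 CPM. Both were high at 20 and 28 h and lowest at 32 h. The quiescence gene nas-38 had 5.30, 31.8, 63.1, 54.4, 13.4, 42.2, 45.7, 10.6, 20.7, 37.8 and 33.2 CPM. The gene nas-30 had 2.13, 32.8, 56.2, 36.0, 11.3, 42.3, 58.9, 8.87, 8.53, 31.02 and 31.7 CPM. Both were high at 22 and 30 h and lowest at 18 h.

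The remaining pair differed from these courses. The N2 levels of nas-9 were 12.7, 8.71, 36.1, 41.8, 22.1, 26.1, 58.3, 64.1, 7.63, 6.55 and 23.7 CPM, with highs at 24 and 32 h, when nas-6, nas-7 and nas-15 were low. Those of nas-11 were 78.3, 69.1, 80.5, 96.1, 103, 65.5, 70.8, 112, 102, 98.3 and 67.8 CPM, a highest level 1.71 times the lowest. By contrast the highest N2 level was 6.71 times the lowest for nas-37, 9.78 times for nas-9 and 27.6 times for nas-30.

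Among the other tested members, nas-12, nas-13, nas-23 and nas-8 had N2 highs at 20 to 22 h and at 28 to 30 h. The highest and lowest N2 levels were 31.9 and 2.65 CPM for nas-23, 11.7 and 0.529 for nas-12, 10.6 and 0.529 for nas-13 and 6.42 and 0.397 for nas-8. The lowest values of nas-12, nas-13 and nas-8 rest on 4, 4 and 3 counts. For nas-1 the lowest value, 0.221 CPM at 18 h, also rests on 3 counts, against 9.23 CPM at 30 h. The members nas-25, nas-31, nas-32, nas-33, nas-39 and nas-5 had no N2 level above 10.6 CPM, and nas-29 reached 22.5 CPM at 20 h. The level of nas-39 stayed between 0.697 and 1.62 CPM in N2.

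A curve with a period of 8 h (a cosine and a sine term, with a linear term for hour) was fitted to each gene in each strain with edgeR. Its amplitude is the log2 distance from the middle of the curve to its top, and a gene was called where its p, adjusted over all genes tested by Benjamini-Hochberg, was under 0.05. In lin-41(xe11), 20 of 25 members were called, against 23.2% of all genes tested. The count was 20 of 25 in double mutants, against 20.2% of all genes. In let-7(n2853) it was 21 of 25, against 31.5% of all genes. In N2, edgeR called 0 of 25 members, against 5.8% of all genes. An unadjusted p under 0.05 was found there for 19 of the 25, against 25.4% of all genes. On the same N2 libraries DESeq2 called 13 members and 1705 genes in all, and limma on the deposited log2 values called 4 members and 1067 genes, against 712 genes with edgeR. The smallest adjusted p of a member in N2 was 0.0536 with edgeR. The counts depend on the period and the hours, for all genes as for the members. With 9 h in place of 8 h, 0 members and 0 genes were called in each mutant. With 7 h it was 4 members and 570 genes in lin-41(xe11), against 2826 genes with 8 h. For double mutants 7 h gave 15 members and 2642 genes, against 2463 genes with 8 h. For let-7(n2853) 7 h gave 19 members and 3808 genes, against 3689 genes with 8 h. In double mutants 0 members and 0 genes were called without the 28 h or the 34 h library. Without 24 h it was 6 members and 801 genes, without 26 h 9 and 960, without 36 h 11 and 1870 and without 38 h 11 and 1466, against 2463 genes with all hours. In N2 it was 4 members and 715 genes without 24 h and 2 members and 638 genes without 18 h.

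The median amplitude of the tested members was 1.25 in lin-41(xe11), 1.47 in double mutants, 1.503 in let-7(n2853) and 0.86 in N2, on the log2 scale. Over all genes tested the medians were 0.198, 0.203, 0.172 and 0.170 in the same strains. An amplitude over 1 was found for 17 members in lin-41(xe11), 18 in double mutants, 18 in let-7(n2853) and 6 in N2. Among all genes tested the shares over 1 were 8.17% in lin-41(xe11), 9.28% in double mutants, 8.94% in let-7(n2853) and 4.46% in N2. The largest fitted amplitudes were those of nas-1, at 2.80 ± 0.36 in lin-41(xe11), 2.28 ± 0.37 in double mutants, 2.01 ± 0.28 in let-7(n2853) and 1.78 ± 0.41 in N2 (± SE).

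For the named molting gene nas-37 the amplitude was 1.18 ± 0.18 in lin-41(xe11) with adjusted p = 0.00557, 1.45 ± 0.31 (adjusted p = 0.0293) in double mutants, 1.52 ± 0.26 (adjusted p = 0.00894) in let-7(n2853) and 0.86 ± 0.19 (adjusted p = 0.054) in N2, by edgeR. For nas-36 it was 1.43 ± 0.23, 1.47 ± 0.38, 1.53 ± 0.25 and 0.88 ± 0.23 in the same order of strains, with adjusted p of 0.00647, 0.0492, 0.00835 and 0.089 by edgeR. The grinder genes had amplitudes of 1.64 ± 0.24 (nas-7) and 1.35 ± 0.24 (nas-6) in lin-41(xe11), and of 1.11 ± 0.31 and 0.78 ± 0.23 in N2. The members not called in any strain were nas-32 and nas-39.

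**Figure D3:**
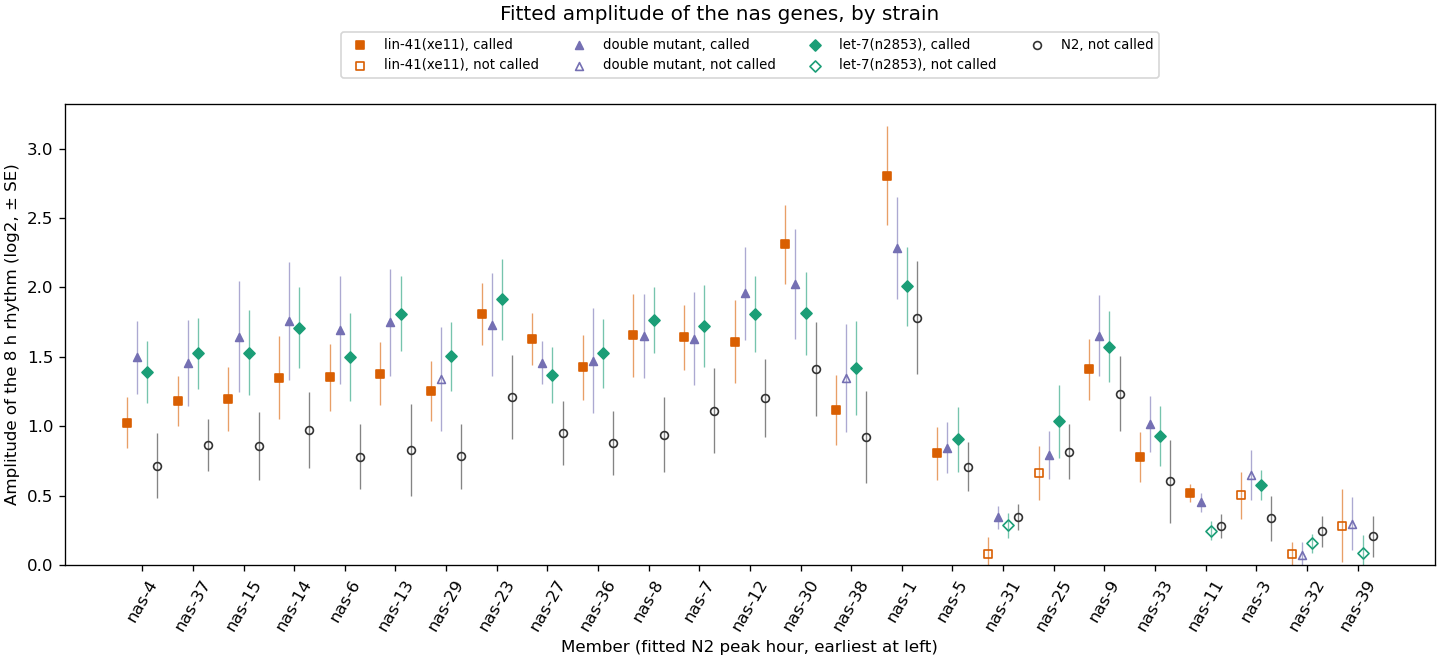
Fitted amplitude (log2, bars ± SE) of the 8 h rhythm for the 25 tested members, ordered by fitted N2 peak; filled symbols are called by edgeR and open symbols are not. Mutant symbols (squares lin-41(xe11), triangles double mutant, diamonds let-7(n2853)) lie above the N2 circle for most members, while all N2 circles are open and most error bars overlap.

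The fitted amplitude was above that of N2 for 22 of 25 members in lin-41(xe11), 22 in double mutants and 21 in let-7(n2853). Among all genes tested in both strains the shares above N2 were 64.8%, 68.7% and 63.7%. The 3 comparisons share the N2 libraries. The difference between a mutant's rhythm and that of N2 was tested in a common fit over all hours. It was called for 0 members and for 0% of all genes in lin-41(xe11), for 0 and 0% in double mutants and for 0 and 0% in let-7(n2853), by edgeR. An unadjusted p under 0.05 was found for 1 member of 28 in lin-41(xe11), against 1.77% of all genes. In double mutants it was 0 of 28, against 1.46%, and in let-7(n2853) 2 of 25, against 5.79%. The 28 include nas-20, nas-21 and nas-22, near 0 at most hours, which passed the filter only in this common fit. DESeq2 and limma called 0 members in each comparison. A larger rhythm in the mutants than in N2 was therefore not shown for any single member.

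The fitted N2 peaks were spread over the 8 h cycle. No member's N2 rhythm was called by edgeR and no error of the peak hour was computed, so close peaks are not ordered. Counted from 18 h, nas-4 and nas-37 came first, at 18.4 and 18.6 h. They were followed by nas-15 and nas-14 at 20.0 and 20.1 h and by nas-6 at 20.2 h. The genes nas-23, nas-36, nas-7 and nas-12 lay at 20.8, 20.9, 21.05 and 21.1 h. The peaks of nas-30 and nas-38 were at 21.6 and 21.8 h, that of nas-9 was at 23.1 h, and that of nas-33 at 23.4 h. The fitted peaks recur every 8 h by construction.

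For the 20 members with an N2 amplitude of at least 0.6, the fitted peak was set beside that of N2. In lin-41(xe11) it lay later than in N2 for 3 of 20 members, with a median difference of −0.32 h (range −0.63 to 0.09 h). In double mutants it lay later for 12 of 20, with a median of 0.02 h (range −0.31 to 0.40 h). In let-7(n2853) it lay later for 20 of 20, with a median of 0.52 h (range 0.20 to 1.03 h). Over all genes of that amplitude the peak lay later in 18.9%, 57.5% and 94% for the same strains, with medians of −0.24, 0.04 and 0.55 h. An age read from the whole library against the interpolated N2 course differed from the labelled hour by −0.6 to 0.6 h in lin-41(xe11), −0.8 to 0.6 h in double mutants and −1.2 to 0 h in let-7(n2853). Ages were searched from 18 to 38 h only, so an 18 h library could not be read as younger. The 0 h of let-7(n2853) is its 18 h library, and its other libraries read −1.2 to −0.2 h. The part of these age differences in the members' peaks was not tested.

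The same fits were read for lists of related genes and of cell type markers. Among all genes tested, the shares called were 23.2% in lin-41(xe11), 20.2% in double mutants, 31.5% in let-7(n2853) and 5.8% in N2. Of 35 tested molting and matrix genes, 30 were called for the 8 h rhythm in lin-41(xe11), 26 in double mutants, 29 in let-7(n2853) and 15 in N2. The N2 calls included the collagen-processing astacin dpy-31 (amplitude 0.32, adjusted p = 0.0382), toh-1 (1.38, adjusted p = 0.0437) and the cuticle gene noah-1 (1.00, adjusted p = 0.0387), by edgeR. Of the genes for pharyngeal cuticle proteins, 10 of 10 were called in lin-41(xe11), 8 of 10 in double mutants, 8 of 9 in let-7(n2853) and 1 of 10 in N2, with median amplitudes of 2.03, 1.89, 1.74 and 1.46. For intestinal proteases the counts were 4, 4, 4 and 1 of 7, with medians of 0.51, 0.54, 0.51 and 0.42. Of cell type markers, 3 of 4 epidermal ones (dpy-7, lin-26, elt-3 and grd-1) were called in each mutant and 0 of 4 in N2. Their summed level ran over the hours from 83.8 to 872 CPM in lin-41(xe11), 93.0 to 799 in double mutants, 143 to 891 in let-7(n2853) and 120 to 656 in N2. Of 4 pharynx markers 2, 1, 2 and 0 were called in the same strains, with sums of 234 to 615, 247 to 619, 199 to 509 and 247 to 612 CPM. Of 4 intestine markers 1, 1, 1 and 0 were called, and 0 of 2 body wall muscle and 0 of 2 germline markers in any strain. Of 3 neuron markers 1 was called in let-7(n2853) and 0 in the other strains. No marker was at 0 in all libraries of a strain. The lists overlap, as phat-5 is also among the pharyngeal cuticle genes and the pharynx markers, and asp-1 among the intestinal proteases and the intestine markers. Whether these lists have a part in the members' rhythm was not tested.

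Levels were next compared between the late window (28 to 36 h, 5 hours) and the early window (18 to 24 h, 4 hours) within N2. This fit had no rhythm term, and with a period of 8 h the late hours 28 and 36 h fall at the same phase. The part of the rhythm in the late minus early values was not tested. Of the 25 members, 2 were lower late and 0 higher, against 8.13% of all genes lower and 8.33% higher. The gene nas-3 (chromosome V, 9478163 to 9479601, plus strand) fell by 2.73 ± 0.44 on the log2 scale, 6.65-fold (edgeR, adjusted p = 0.0114). Its N2 levels were 3.50, 3.74, 5.16, 2.21 and 1.18 CPM at the 5 late hours and 32.7, 26.3, 13.01 and 9.86 CPM at the 4 early hours. No late hour reached the lowest early hour. At 26 h, between the windows, nas-3 stood at 11.7 CPM, and at 38 h at 0.553 CPM.

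The gene nas-31 fell by 1.01 ± 0.25 in N2 (edgeR, adjusted p = 0.0282). It had 6.06, 6.07, 7.15, 2.61 and 3.22 CPM at the late hours and 10.2, 9.28, 10.6 and 9.38 CPM at the early hours, without overlap. The nas-31 call ended when any 1 of the early hours, or 36 h, was left out, and without 34 and 36 h together both calls ended (nas-3 −2.36, adjusted p = 0.0561; nas-31 −0.68, adjusted p = 0.0547). A further member, nas-27, had a late minus early value of 1.65 ± 0.63 in N2 with an unadjusted p of 0.028 but an adjusted p of 0.104 (edgeR). It was called higher late with DESeq2 (1.66, adjusted p = 0.0327), with wider windows (1.998, adjusted p = 0.0288) and without 32 h (1.93, adjusted p = 0.0393). Its N2 level was 51.2 CPM at 38 h and 2.80 CPM at 18 h.

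Between strains, nearly all member levels within a window differed by less than the fit could call. In lin-41(xe11) against N2, 0 of 25 members were called late, against 0.0666% of all genes higher and 0.348% lower, and 0 early, against 0.0074% higher and 0.0148% lower. In double mutants against N2, 0 of 25 were called late, against 0.267% of all genes higher and 0.644% lower, and 0 early, against 0.0074% higher and 0.0296% lower. For let-7(n2853), the late minus early difference was set against that of N2, which removes a constant offset between the courses, and 0 of 25 were called, against 0.0153% of all genes higher and 0.00766% lower. An age difference that changes over the hours is not removed. That of let-7(n2853) read −0.7 to 0 h at the early hours and −1.2 to −0.2 h at the late hours. These comparisons share the N2 libraries. With edgeR an unadjusted p under 0.05 was found for 2, 0, 2, 0 and 2 members in these 5 comparisons. The shares of all genes tested with such a p were 7.79%, 5.73%, 10.8%, 6.6% and 10.4% in the same order. DESeq2 and limma called 0 members in each comparison.

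The members with an unadjusted p under 0.05 were few. In lin-41(xe11) against N2 late they were nas-3 (−0.69 ± 0.24, adjusted p = 0.404) and nas-31 (0.39 ± 0.14, adjusted p = 0.45), by edgeR. In double mutants against N2 late they were nas-3 (0.56 ± 0.20, adjusted p = 0.283) and nas-27 (−0.80 ± 0.27, adjusted p = 0.248), by edgeR. In let-7(n2853) against N2, late minus early, they were nas-37 (1.11 ± 0.45, adjusted p = 0.445) and nas-3 (0.68 ± 0.25, adjusted p = 0.406), by edgeR. The values of all 25 members lay between −0.69 and 0.39 in lin-41(xe11) against N2 late and between −0.80 and 0.56 in double mutants against N2 late.

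The exception was nas-3 between the 2 strains that carry lin-41(xe11). In the late window it was 2.38-fold higher in double mutants than in lin-41(xe11) (log2 1.25 ± 0.22, edgeR, adjusted p = 0.0243), the single member called there. Over all genes tested, 0.0518% were higher and 0.074% lower in that comparison. At 28, 30, 32, 34 and 36 h, nas-3 had 5.76, 3.69, 7.27, 4.29 and 2.03 CPM in double mutants and 2.16, 2.74, 3.01, 1.34 and 0.632 CPM in lin-41(xe11). These values rest on 58, 27, 60, 52 and 22 counts in double mutants and on only 17, 19, 22, 12 and 7 in lin-41(xe11). The double mutant was higher at 5 of 5 hours, although the ranges of the strains over the window overlapped. The call was lost without 28, 32, 34 or 36 h, with adjusted p of 0.2, 0.233, 0.224 and 0.135, and without a term for each hour (1.23, adjusted p = 1).

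The late values of nas-3 in the other strains lay around these. In let-7(n2853) they were 8.42, 4.37, 7.69, 4.73 and 2.53 CPM, and in N2 they were 3.50, 3.74, 5.16, 2.21 and 1.18 CPM. The late means were 1.97 ± 0.99 CPM in lin-41(xe11), 4.61 ± 1.998 in double mutants, 5.55 ± 2.45 in let-7(n2853) and 3.16 ± 1.52 in N2 (SD, n = 5 hours). In the late window let-7(n2853) was above N2 at 5 of 5 hours, the double mutant above N2 at 4 of 5 and N2 above lin-41(xe11) at 5 of 5. The level of nas-3 falls with age, and the late libraries differ in the age read from all genes. It was 28.5, 30.2, 32.2, 33.4 and 36.6 h in lin-41(xe11) and 27.6, 30.3, 31.9, 33.2 and 36.6 h in double mutants. In let-7(n2853) it was 27.2, 29.8, 31.4, 32.9 and 34.8 h. The part of age in the difference between the double mutant and lin-41(xe11) was not tested. The early means were 17.7 ± 11.02 CPM in lin-41(xe11), 24.3 ± 17.4 in double mutants, 22.8 ± 13.8 in let-7(n2853) and 20.5 ± 10.8 in N2 (SD, n = 4 hours).

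**Figure D4:**
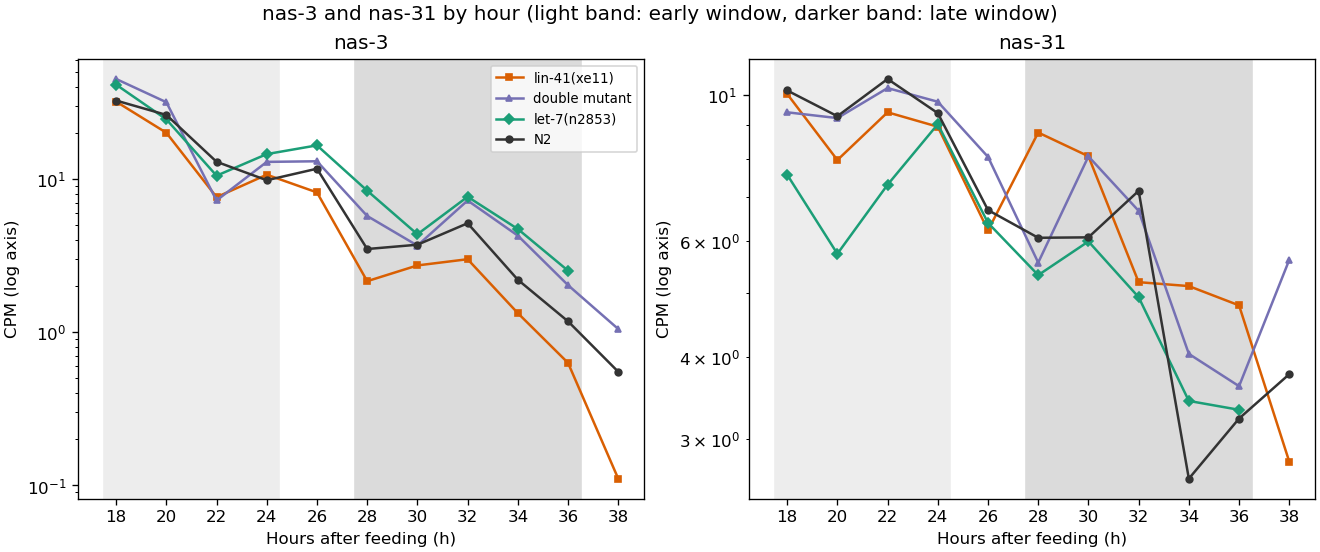
Footprint level in CPM (log axis) of nas-3 (left) and nas-31 (right) against hours after feeding in lin-41(xe11), the double mutant, let-7(n2853) and N2, with 1 library per point; bands mark the early and late windows. From 28 h on, nas-3 is lowest in lin-41(xe11), with 0.632 CPM at 36 h against 1.18 CPM in N2, and nas-31 is below 4 CPM in N2 from 34 h on.

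A run of 3 neighbouring genes appeared late. The genes nas-20, nas-21 and nas-22 lie side by side on chromosome V (11470925 to 11478007, WBcel235), with gaps of 254 and 799 bp. They failed the filter in each strain's own fit because their counts came in the last hours. At 38 h, nas-20 had 54.9 CPM in lin-41(xe11) (95% exact Poisson interval 50.2 to 59.99), 39.5 in double mutants (35.4 to 44.0) and 40.9 in N2 (36.9 to 45.3). At 36 h it had 16.9 CPM in lin-41(xe11) (14.6 to 19.5), 15.5 in double mutants (13.3 to 18.1), 2.13 in let-7(n2853) (1.60 to 2.78) and 8.05 in N2 (6.33 to 10.1). At 34 h it was under 1 CPM in every strain. These intervals cover counting error only, and with 1 library per hour the difference between strains has no replicate check.

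The neighbour nas-22 had no count in any library from 18 to 32 h. At 36 h it had 4.33 CPM in lin-41(xe11), 3.33 in double mutants, 1.03 in let-7(n2853) and 4.29 in N2, and at 38 h 6.09, 5.496 and 4.98 CPM in lin-41(xe11), the double mutant and N2. At 34 h it had 19 counts (1.91 CPM) in N2, against 2 in lin-41(xe11), 3 in double mutants and 1 in let-7(n2853). The gene between them, nas-21, had at most 14 counts in a library. The age of the let-7(n2853) library at 36 h was read as 34.8 h from all genes, and its part in the nas-20 level was not tested.

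**Figure D5:**
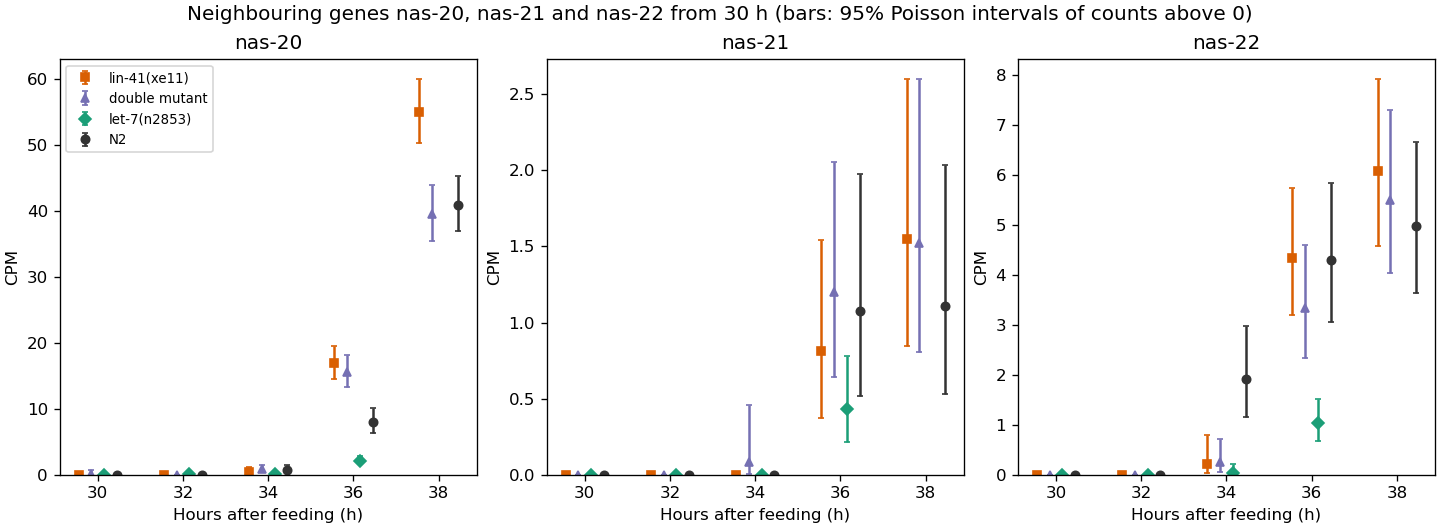
Footprint level in CPM of nas-20, nas-21 and nas-22 from 30 to 38 h in lin-41(xe11), the double mutant, let-7(n2853) and N2, with 95% exact Poisson intervals for counts above 0; let-7(n2853) has no library at 38 h. At 38 h nas-20 lies at 54.9, 39.5 and 40.9 CPM in lin-41(xe11), the double mutant and N2, while nas-21 stays below 2 CPM.

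Another cluster on chromosome V (11392320 to 11402710) was nearly silent at all hours. Over all 43 libraries nas-16 had 1 count, nas-17 had 18, nas-18 had 5 and nas-19 had 19. Both rows named nas-2 had 0 counts in all 43 libraries, which allows up to 0.598 CPM in the shallowest library (3 counts, counting error only). The 2 nas-2 loci, also on chromosome V, have the same length of 1743 bp, and how reads that match more than 1 place were counted is not given in the sources used here. Among the others under the filter, nas-10 had 53 counts in all, nas-24 had 63 and nas-28 had 345.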

How the data were processed

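Ribosome footprints were measured in 43 libraries from whole animals, 1 per strain and hour, and samples were grouped by the labelled strain and time. The authors deposited footprint counts per gene and a second table of log2 values. The aligner was Bowtie, per the submitters' processing notes. The aligner version, the genome build and the handling of reads that match several places are not given in the sources used here. The deposited log2 values equal log2 of the scaled count plus 8, as computed here from both tables. Gene positions and coding lengths come from the WBcel235 annotation. Of 20182 identifiers, 18778 had a symbol in the name table. Highest correlation between 2 libraries was 0.9969 and 0 pairs were identical.

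Counts were fitted over all genes with edgeR 4.0.16 in R 4.3.3 (quasi-likelihood, TMM, at least 1 CPM in at least 5 libraries of the fit) and p-values were adjusted by Benjamini-Hochberg, with calls under 0.05. Rhythm fits had cosine and sine terms of 8 h and a linear term for hour. Window fits of the second course had a term for each hour and used its 3 strains together. Hours stand in for replicates. The scripts were tested on simulated data. DESeq2 1.42.0 on the counts, limma 3.58.1 on the deposited log2 values, other filters, scalings, periods and windows, and leaving out each hour were tried. No test of a list was made.

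All 11 N2 values are given for nas-3, nas-6, nas-7, nas-36 and nas-37, for members called between strains and for the 6 other members of highest mean N2 CPM. Other members are given by peak hour, range and counts. The members, lists and named genes were chosen with earlier results of these data known. No sequence is shown.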

Additional observations from a re-analysis of the deposited data

Results flagged for a closer look

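The late level of nas-3 differed between the 2 strains that carry lin-41(xe11) in a test of the difference itself, with all 5 late hours. It was higher in the double mutant than in lin-41(xe11) by 1.25 on the log2 scale (edgeR, adjusted p = 0.0243), at 5 of 5 late hours. The double mutant averaged 4.61 ± 1.998 CPM and lin-41(xe11) 1.97 ± 0.99 CPM over the late window (SD, n = 5 hours). The late lin-41(xe11) values rest on 7 to 22 counts. The part of library age in this difference was not tested. In the early window nas-3 was higher in the double mutant at 3 of 4 hours. The call was lost without 28, 32, 34 or 36 h (adjusted p = 0.2, 0.233, 0.224 and 0.135), without 34 and 36 h together (1.06, adjusted p = 0.641) and with no hour term (adjusted p = 1), by edgeR.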

How the results depend on the processing

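Members called for the N2 rhythm, 0 in the main fit, numbered 2 with no low-count filter, 13 with DESeq2 and 4 with limma on the deposited log2 values. They numbered 1 over 18 to 36 h and 0 to 4 when 1 hour was left out. All genes called numbered 712 in the main fit, 1099 with no filter, 1705 with DESeq2 and 1067 with limma. Over 18 to 36 h it was 565 genes, and 0 to 715 when 1 hour was left out. In lin-41(xe11) the 20 members called for the rhythm became 4 with a period of 7 h, 0 with 9 h and 17 to 21 when 1 hour was left out. All genes called there went from 2826 to 570, 0 and 2024 to 2764 in the same order. In the double mutant the 20 became 15 with 7 h, 0 with 9 h, 11 with no linear term and 11 over 18 to 36 h. All genes called there went from 2463 to 2642, 0, 1124 and 1466 in the same order. Leaving out 1 hour gave 0 to 20 members there, against 0 to 2543 of all genes. It gave 0 members when the hour was 28 or 34 h, 6 for 24 h, 9 for 26 h and 11 for 36 or 38 h. In let-7(n2853) the 21 became 19 with 7 h, 0 with 9 h and 15 to 20 when 1 hour was left out. All genes called in that strain went from 3689 to 3808, 0 and 2561 to 3265. The 2 members called between the N2 windows, both lower late, became 0 without 34 and 36 h. When 1 hour was left out, 1 to 3 members were called, against 633 to 2049 of all genes. The gained member, without 32 h, was nas-27, which was higher late. The single member called between the double mutant and lin-41(xe11) late became 0 without 34 and 36 h, 0 with no hour term, and 0 to 1 when 1 hour was left out. All genes called there numbered 7 to 15 when 1 hour was left out, against 7 higher and 10 lower with all hours. The causes were not tested. In the other comparisons between strains 0 members were called under every alternative run. Of the single members' values, 1143 kept their direction and side of the threshold, 279 lost and 15 gained the call, and 1 reversed: nas-3 early in the double mutant against N2, −0.0134 without 18 h. The strains are paired by labelled hour, and the comparisons between strains hold a term for each hour. With no such replicate block the nas-3 call between the double mutant and lin-41(xe11) ended (1.23, adjusted p = 1), and no other member call between strains changed. Depth limits members with few counts, such as nas-1, nas-8, nas-12 and nas-13 at their lows and nas-3 in the late window of lin-41(xe11).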
